A study of Mus musculus with 12 samples.

Results

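Left ventricles of CnAb1 transgenic mice under pressure overload were compared with those of wild-type mice that had a sham operation, which measures how far the banded transgenic heart stood from a normal heart. The comparison used 6 of the 12 arrays of the series: 3 transgenic TAC arrays and 3 wild-type sham arrays, chosen by their sample titles. The transgenic mice overexpressed CnAb1, an isoform of the calcineurin A beta subunit made by alternative splicing, and had a transverse aortic constriction (TAC), in which a band narrows the aorta and the left ventricle pumps against a higher pressure. The wild-type mice carried no transgene by their labels and had surgery without a band. All mice were of strain C57/Bl6, and by the protocol and the source names all hearts were taken 21 days after surgery, although the time label of the sham groups reads 0. The promoter that drives the transgene, the number of transgenic lines and the age and sex of the mice are not given in the labels. The labels also do not say that each array came from a separate mouse, so each p-value reflects array-to-array spread, which may be technical. The other 6 arrays, 3 of transgenic sham and 3 of wild-type TAC hearts, gave the transgene without the band and the band without the transgene.

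A left ventricle that works against a raised pressure enlarges its muscle cells, switches part of its gene program back to fetal isoforms such as the slow myosin heavy chain, secretes natriuretic peptides, deposits collagen and lowers the expression of fatty acid oxidation genes. Calcineurin, a phosphatase activated by calcium, drives part of this growth through NFAT transcription factors. CnAb1 has an alternative carboxy terminus in place of the autoinhibitory domain of the usual calcineurin, and the series ties it to mitohormesis, an adaptive response to mild mitochondrial stress. ATF4, a transcription factor of the integrated stress response, raises genes of amino acid supply, serine synthesis and mitochondrial one-carbon metabolism, and it binds a composite C/EBP-ATF element in many of its targets.

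The promoters of Mthfd2 and Asns, stress response genes that passed, and of Fgf21, a secreted target of ATF4 that did not, are shown. These are the 250 bases before the gene start, from RefSeq on GRCm38.p6, written 5′ to 3′ along the gene, each on the minus strand: Asns at chr6:7693210-7693459, Fgf21 at chr7:45615491-45615740 and Mthfd2 at chr6:83317605-83317854. Capitals mark matches to the C/EBP-ATF element TGATGNAAN, searched on both strands. The element was in 1129 of 32851 promoters of this length (3.44%), which belong to 1052 of 27025 genes (3.89%). By gene it was in 6 of 23 members of the ATF4 and amino acid response list that had a promoter, and in 0 of 17 of the serine and one-carbon list.
Asns: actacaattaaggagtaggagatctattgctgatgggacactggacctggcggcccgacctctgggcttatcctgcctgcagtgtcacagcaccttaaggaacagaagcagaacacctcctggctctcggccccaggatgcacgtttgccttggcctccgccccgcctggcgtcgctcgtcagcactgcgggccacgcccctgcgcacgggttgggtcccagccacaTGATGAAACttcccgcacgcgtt
Fgf21: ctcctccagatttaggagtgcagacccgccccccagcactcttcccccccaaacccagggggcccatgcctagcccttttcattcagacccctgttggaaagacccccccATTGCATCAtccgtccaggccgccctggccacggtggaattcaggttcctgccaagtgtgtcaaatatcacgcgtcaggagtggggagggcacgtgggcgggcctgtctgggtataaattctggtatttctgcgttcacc
Mthfd2: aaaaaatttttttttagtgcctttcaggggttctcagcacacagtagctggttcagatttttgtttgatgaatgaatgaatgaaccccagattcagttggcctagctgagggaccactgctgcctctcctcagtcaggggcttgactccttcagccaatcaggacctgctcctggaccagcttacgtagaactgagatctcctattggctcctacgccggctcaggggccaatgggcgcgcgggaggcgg
The Asns match, TGATGAAAC, began 23 bases before the start on the strand of the gene. The Fgf21 match began 140 bases before it and lay on the opposite strand, where it reads TGATGCAAT. The Mthfd2 window held none. A match describes these letters only, and binding was not measured.

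Levels are log2 processed signals minus the 75th percentile of their array, so that 0 is the brightness of the spot at the 75th percentile, and levels of different genes are not compared. Differences are banded transgenic minus wild-type sham unless another pair is named, ± the standard error of limma, and a gene passed when its limma p-value, adjusted over all 25185 genes tested, was under 0.05. The 75th percentile itself was 8.98 to 9.24 (log2) on the wild-type sham arrays and 9.48 to 9.85 on the banded transgenic arrays. Well above background were 60.3% to 78.2% of probes on 11 arrays and 37.2% on transgenic sham array 2. The arrays came from 5 slides, and no slide held both a transgenic TAC and a wild-type sham array, so slide and group cannot be told apart without the other groups as a bridge. Of the banded transgenic arrays only array 3 shared a slide with another group. A fit with slide as a fixed block therefore rests on that array, and a gene may fail there for lack of precision. The tissue is whole ventricle, in which fewer cells of a type and less RNA per cell cannot be told apart. The cardiomyocyte markers were bright in every group. Of the 8 atrial markers only 1, Sln, was not well above background on any wild-type sham array. Ppp3cb, the gene of calcineurin A beta, had 1 probe on the array, at 1.63, 1.55 and 1.57 on the wild-type sham and 1.47, 1.38 and 1.43 on the banded transgenic arrays, a difference of -0.16 ± 0.09 (adjusted p = 0.466). The sources used here do not place that probe relative to the transgene, so it checks no label.

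Among well measured genes, banded transgenic hearts stood outside the spread of wild-type sham hearts. Over 12244 genes well above background on all 12 arrays, each array was set against the mean of pairs of wild-type sham arrays. A wild-type sham array differed from the mean of the other two by a median absolute log2 difference of 0.07 to 0.12. The banded transgenic arrays lay at 0.20, 0.24 and 0.18, beyond every wild-type sham array. Unbanded transgenic arrays lay at 0.22 to 0.23, within the range of the banded transgenic ones, and banded wild-type arrays lay farthest, at 0.30 to 0.39, beyond every transgenic array. Over all 25185 genes the banded transgenic arrays lay at 0.25 to 0.33, above the wild-type sham arrays at 0.13 to 0.18. There the other groups were not in the same order, since unbanded transgenic arrays reached 0.39 and banded wild-type arrays began at 0.34. By root mean square, which large differences dominate, the banded transgenic (0.52 to 0.70) and wild-type sham ranges (0.39 to 0.54) overlapped over all genes and not over the 12244. These are descriptions without a test, since 3 arrays against 3 cannot pass an exact permutation test at 0.05. Wild-type sham arrays 1 and 2 shared a slide, and no banded transgenic array was on a slide with any wild-type sham array. The distances therefore include any difference between slides, and its part was not tested.

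**Figure D1:**
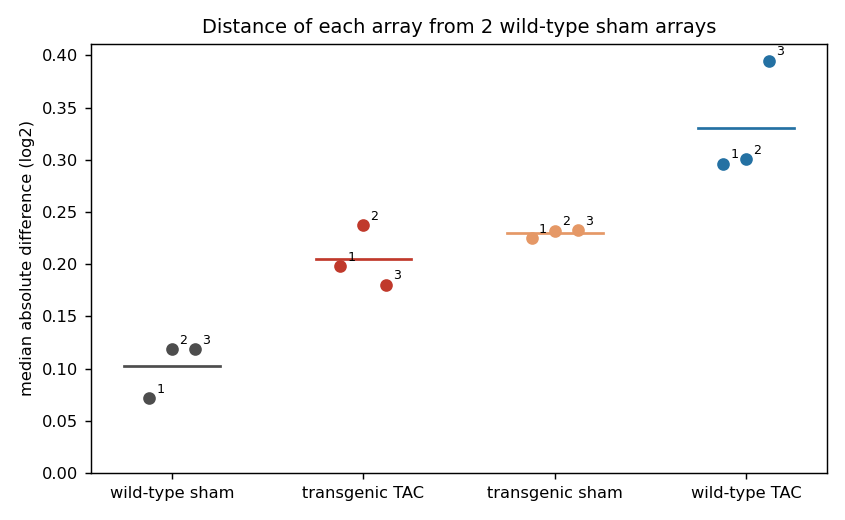
Median absolute log2 difference of each of the 12 arrays from the mean of 2 wild-type sham arrays, averaged over the pairs, for genes well above background on all 12 arrays; each point is an array, grouped by genotype and surgery. The 3 banded transgenic arrays lie between 0.18 and 0.24, above the wild-type sham arrays (0.07 to 0.12) and below the banded wild-type arrays (0.30 to 0.39).

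Of the 25185 genes, 172 passed (0.683%), 123 of them higher (0.488%) and 49 lower (0.195%) in banded transgenic hearts. Differences over 2-fold made up 100 of these (0.397%), 88 higher (0.349%) and 12 lower (0.0476%). For 7129 genes the ranges of the groups were separate (28.3%; 2822 higher, 11.2%, and 4307 lower, 17.1%), and an unadjusted p was under 0.05 for 3972 (15.8%). The median over all genes was -0.05, and 42.9% of all genes had differences above 0. In the same fit 5418 genes (21.5%) passed between banded wild-type and wild-type sham hearts and 353 (1.4%) between transgenic sham and wild-type sham hearts. These 3 comparisons share the wild-type sham arrays. Between banded and unbanded transgenic hearts 0 passed by limma (1571, or 6.24%, with an unadjusted p under 0.05). The number that passed moved with single arrays: it was 38 without transgenic TAC array 2, 72 without transgenic TAC array 3, 39, 38 and 47 without wild-type sham array 1, 2 or 3, 78 without wild-type TAC array 1 and 299 without transgenic sham array 3. With slide as a random block it was 78, and with slide as a fixed block 0. All 172 kept their direction in the 29 alternatives, and 32 passed whichever array was left out, among them Tmem72, Dlg4, Pced1b, Gna15, Hspb9, Plppr4, Mkrn1, Myh7, Dhrs4, Tom1 and Sbk1. The other genes named below that passed lost their call without wild-type sham array 1 and, all but Scd2 and Lrrc10, also without transgenic TAC array 2.

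**Figure D2:**
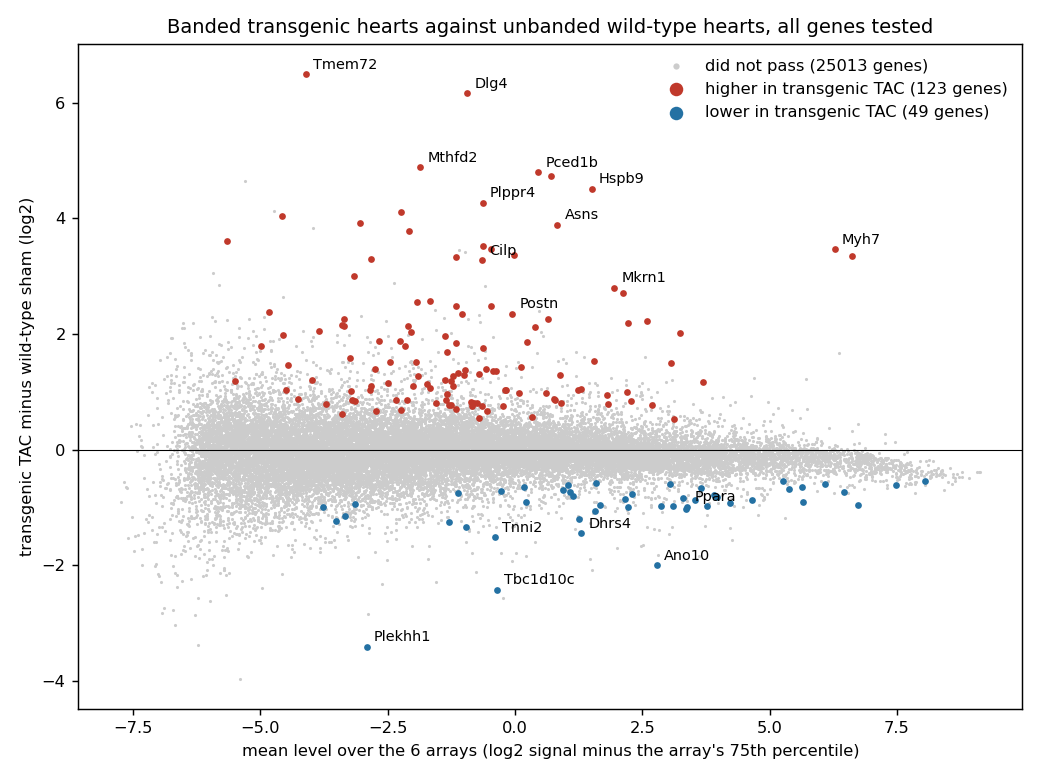
Difference between banded transgenic and wild-type sham hearts (log2, vertical axis) against the mean level over the 6 arrays (log2 relative to the 75th percentile, horizontal axis) for the 25185 genes tested; coloured points passed. The 123 genes that rose reach differences above 6, and the 49 that fell reach -3.41.

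Most of the largest increases of named genes belonged to genes that did not pass between banded wild-type and wild-type sham hearts. Tmem72, a transmembrane protein gene, was not well above background on any wild-type sham array (-7.90, -6.34 and -7.80) and measured -0.90, -0.63 and -1.03 on the banded transgenic arrays. It was at least 23.8-fold higher (fitted difference 6.49 ± 0.36, adjusted p = 4.6e-05). Dlg4, which encodes the postsynaptic scaffold PSD95, stood at -4.21, -3.75 and -4.11 against 2.00, 2.39 and 2.04, and rose by 6.17 ± 0.19 (adjusted p = 7.44e-07). In banded wild-type hearts Dlg4 differed from sham by 0.47, and in unbanded transgenic hearts by 6.09. Gna15, a G protein alpha subunit of the Gq class, went from -1.58, -1.66 and -1.76 to 2.95, 3.40 and 2.86, a rise of 4.74 ± 0.17 (adjusted p = 1.95e-06). Hspb9, a small heat shock protein gene, went from -0.43, -0.62 and -1.21 to 3.78, 3.98 and 3.51, a rise of 4.51 ± 0.28 (adjusted p = 7.21e-05). For each of these genes the gap between the groups was many times the spread within them, and unbanded transgenic hearts were above sham by 4.77 in Gna15 and 4.79 in Hspb9.

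Also far above wild-type sham were Pced1b (4.80 ± 0.19), Plppr4, a member of the lipid phosphatase-related family (4.27 ± 0.25), and Mkrn1, a RING finger ubiquitin ligase (2.80 ± 0.17), with adjusted p-values of 2.66e-06, 4.83e-05 and 5.87e-05. Another Mkrn1 probe measured -0.05, so the 2 probes of this gene disagreed. Set against banded wild-type hearts, where 4.17% of all genes passed, the banded transgenic hearts were higher in Dlg4 by 5.70, in Gna15 by 5.08, in Hspb9 by 5.17, in Pced1b by 4.85, in Plppr4 by 4.75 and in Mkrn1 by 2.95 (adjusted p from 9.88e-07 to 3.09e-05). Tmem72 was not well above background on any banded wild-type array and well above it on all transgenic arrays. Over all genes the number that passed in that comparison ran from 178 without transgenic TAC array 1 to 1359 without transgenic sham array 3. Dlg4, Gna15, Hspb9, Pced1b, Plppr4, Mkrn1 and Tmem72 also passed against wild-type sham with slide as a random block, with adjusted p-values from 2.68e-06 to 0.000156. With slide as a fixed block the differences of the 6 genes other than Tmem72 were 2.74 to 5.73, and none of the 7 passed there.

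Aadacl3, a gene of the arylacetamide deacetylase family, stood at -4.68, -4.89 and -4.44 on the wild-type sham arrays and at -1.86, -1.71 and -1.41 on the banded transgenic arrays, and rose by 3.01 ± 0.41 (adjusted p = 0.0138). It was 2.93 higher than in banded wild-type hearts (adjusted p = 0.0083). C6, a complement component of the membrane attack complex, rose by 2.57 ± 0.47 (adjusted p = 0.0478; 0.0836 with slide as a random block) and was 2.64 above banded wild-type hearts (adjusted p = 0.0214). Ren1, the renin gene, was chosen after its values were seen. It measured -1.65, -1.69 and -1.78 on the wild-type sham arrays and 0.48, 1.05 and 0.78 on the banded transgenic arrays, and rose by 2.48 ± 0.38 (adjusted p = 0.0237). In unbanded transgenic hearts Ren1 was 3.26 above wild-type sham, and in banded wild-type hearts the difference was -0.83. Its groups did not overlap, and the banded transgenic hearts were 3.31 above banded wild-type hearts (adjusted p = 0.00345).

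**Figure D3:**
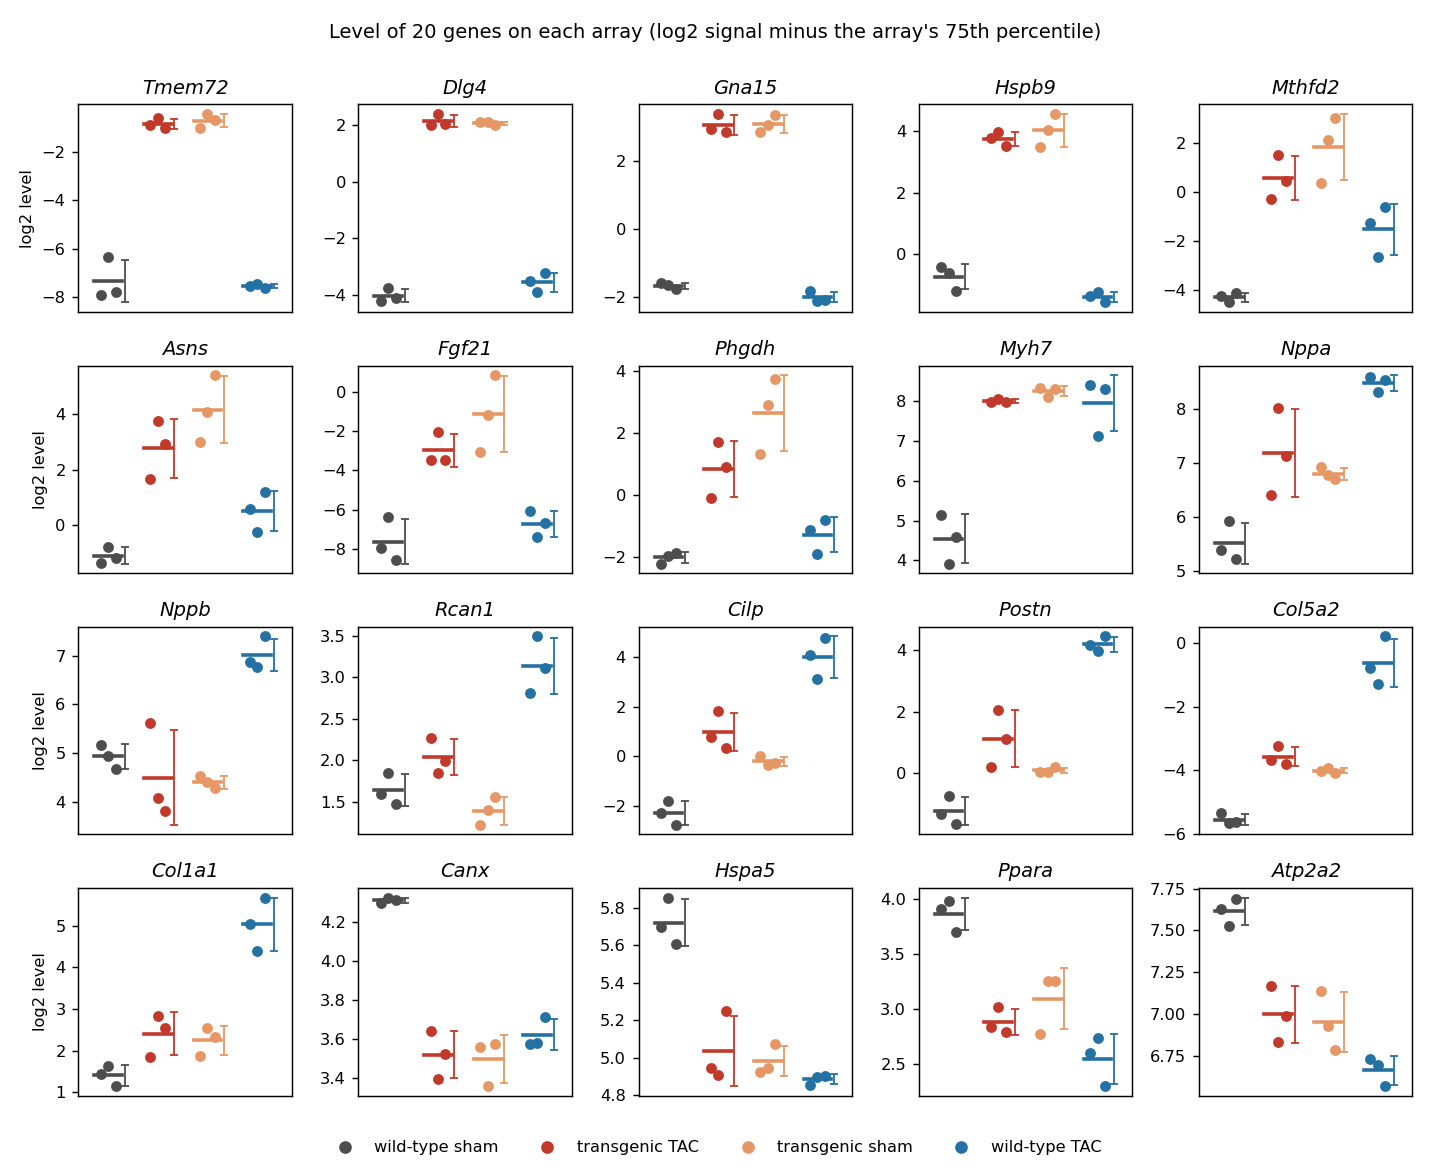
Levels (log2 relative to the 75th percentile of each array) of 20 genes in the 4 groups; each point is an array, the line is the mean of 3 arrays, the bar is the SD, and the vertical axes differ between panels. Tmem72, Dlg4, Gna15 and Hspb9 are high on all transgenic arrays, Myh7 on all arrays but wild-type sham, and Cilp, Postn and Col5a2 are highest in banded wild-type hearts.

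Among fetal cardiac genes, only Myh7 passed. Myh7, the slow myosin heavy chain, measured 5.14, 3.91 and 4.58 on the wild-type sham arrays and 7.98, 8.07 and 7.99 on the banded transgenic arrays. It rose by 3.47 ± 0.36 (11.1-fold, adjusted p = 0.00263), and the groups did not overlap. The difference from sham was 3.41 in banded wild-type and 3.71 in unbanded transgenic hearts. Against banded wild-type hearts the banded transgenic hearts differed by 0.06 ± 0.36 (adjusted p = 0.947). Of the 13 measured natriuretic peptide and fetal cardiac genes 1, Myh7, passed, 0 were lower and 12 did not pass, with a median of 0.62. Above every wild-type sham array were 8 members, as were 11.2% of all genes.

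The natriuretic peptides did not move together. Nppa, the atrial peptide, stood at 5.39, 5.94 and 5.22 on the wild-type sham arrays and at 6.40, 8.03 and 7.13 on the banded transgenic arrays. All 3 banded transgenic arrays were above the sham arrays, with a spread of their own, and the difference of 1.67 ± 0.35 did not pass (adjusted p = 0.0694). Nppb, the B-type peptide, measured 5.17, 4.95 and 4.68 against 5.62, 4.08 and 3.82, a difference of -0.43 ± 0.40 (adjusted p = 0.675) with overlapping groups. In banded wild-type hearts Nppb was 2.08 above sham, and the banded transgenic hearts were lower than those by 2.51 on the log2 scale, a difference of -2.51 ± 0.40 (adjusted p = 0.0148). Acta1, skeletal alpha-actin, differed from sham by 1.22 ± 0.72 (adjusted p = 0.468), Xirp2, an actin-binding protein of the intercalated disc, by 0.88 ± 0.26 (adjusted p = 0.139) and Fhl1, a LIM protein of the sarcomere, by 0.62 ± 0.22 (adjusted p = 0.207). Of the 8 atrial markers, Nppa among them, 0 passed, with a median of 0.49. Above every wild-type sham array were 6 of the 8, as were 11.2% of all genes. Dkk3 differed by 1.61 ± 0.60 (adjusted p = 0.227) and Myl7, the atrial myosin light chain, by -0.10 ± 0.27 (adjusted p = 0.911). The part of atrial tissue in the Nppa values was not tested.

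Matrix genes stood above wild-type sham but well below banded wild-type hearts. All 16 measured collagen genes had differences above 0, from 0.08 to 2.04 with a median of 0.72. On every banded transgenic array 14 of the 16 were higher than on any wild-type sham array, as were 11.2% of all genes. Col5a2 and Col8a1 passed as higher, as did 0.488% of all genes, while 0 were lower and 14 did not pass. Col5a2, the alpha-2 chain of type V collagen, went from -5.36, -5.67 and -5.62 to -3.66, -3.24 and -3.79, a rise of 1.99 ± 0.32 (adjusted p = 0.0285). Col8a1, of type VIII collagen, went from -3.07, -2.87 and -3.22 to -1.74, -0.38 and -0.95, a rise of 2.04 ± 0.36 (adjusted p = 0.0411). Col1a1, the main fibrillar collagen chain, measured 1.45, 1.63 and 1.14 against 1.84, 2.83 and 2.55. Its groups did not overlap, but the difference of 1.00 ± 0.35 did not pass (adjusted p = 0.2). In banded wild-type hearts Col1a1 was 3.63 above sham, and the banded transgenic hearts were below those by a difference of -2.63 ± 0.35 (adjusted p = 0.00617).

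Of 29 matricellular and other matrix genes 4 passed, all higher: Cilp, Postn, Fbn1 and Lum. Of all genes 0.488% passed as higher. Above every wild-type sham array were 16 members and below every one 2, beside 11.2% and 17.1% of all genes. Cilp, a secreted matrix protein, stood at -2.30, -1.81 and -2.77 on the wild-type sham arrays and at 0.79, 1.83 and 0.35 on the banded transgenic arrays, and rose by 3.28 ± 0.47 (9.72-fold, adjusted p = 0.0169). Postn, periostin of activated fibroblasts, went from -1.30, -0.74 and -1.63 to 0.20, 2.06 and 1.11, a rise of 2.35 ± 0.40 (5.09-fold, adjusted p = 0.0386). The arrays of neither gene overlapped, and transgenic TAC array 2 was the highest for both. Fbn1, the microfibril protein fibrillin, rose by 1.36 ± 0.21 (adjusted p = 0.0223) and Lum, the collagen-binding lumican, by 0.99 ± 0.18 (adjusted p = 0.0442). Ltbp2, a fibrillin-associated protein, differed by 2.21 ± 0.50 (adjusted p = 0.0815) and Lox, the lysyl oxidase that crosslinks collagen, by -0.68 ± 0.55 (adjusted p = 0.618). The median of the list was 0.68, with 25 of 29 above 0. With slide as a random block none of these genes passed, at adjusted p = 0.0598 for Cilp, 0.0978 for Postn, 0.0931 for Col5a2, 0.106 for Col8a1, 0.0691 for Fbn1 and 0.115 for Lum.

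Banded wild-type hearts had collagen and matricellular medians of 2.37 and 2.41 above wild-type sham, and unbanded transgenic hearts of 0.72 and 0.43; these comparisons share the sham arrays. Tested directly, the banded transgenic hearts were lower than banded wild-type hearts for 15 of 16 collagen genes (median -1.68), beside 1.92% of all genes. They were lower for 20 of 29 matricellular genes (median -1.81), a count of 7 without transgenic TAC array 1, 11 without transgenic TAC array 3, 13 without wild-type sham array 1, and 10 and 11 without wild-type TAC array 1 or 3. Differences of Cilp (-3.00 ± 0.47, adjusted p = 0.0133), Postn (-3.07 ± 0.40, adjusted p = 0.00578) and Col5a2 (-2.95 ± 0.32, adjusted p = 0.00281) show the size of the gap. On the slide that held 1 banded transgenic and 2 banded wild-type arrays, the collagen median was -1.90, with 15 of 16 below 0. The matricellular median there was -1.78, with 29 of 29 below 0. The share of all genes below 0 on that slide was not computed, and over all arrays of the comparison 55.3% were above 0. With normexp in place of the processed signal 7 collagen (median -1.38) and 7 matricellular genes (median -1.45) were lower. With slide as a fixed block 0 and 0 were, with medians of -1.86 and -1.69.

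Beside the matrix genes, 2 of the 12 fibroblast markers passed as higher, as did 0.488% of all genes. They were Pi16 and Lum, and Lum is also one of the matrix genes. Pi16, a peptidase inhibitor of adventitial fibroblasts, went from 3.12, 3.47 and 2.72 to 4.25, 4.28 and 4.32, a rise of 1.18 ± 0.19 (adjusted p = 0.0271; 0.0636 with slide as a random block). Pdgfra, the receptor that defines these cells, differed by 0.77 ± 0.22 (adjusted p = 0.135) and Wif1, a Wnt inhibitor, by -1.24 ± 0.46 (adjusted p = 0.232). The summed level of the list was 140 to 221 times the 75th percentile signal on the wild-type sham arrays, 220 to 249 on the banded transgenic arrays and 312 to 354 on the banded wild-type arrays, so the ranges of the groups compared met at their ends. The list median was 0.43, and its part in the matrix values was not tested. Of the TGF-beta and activin genes 1 of 21 passed: Inhbb, the activin beta B subunit, went from -2.79, -2.62 and -2.68 to -0.78, -1.39 and -1.40, a rise of 1.51 ± 0.22 (adjusted p = 0.0169). Its difference was 1.58 in banded wild-type hearts and 0.21 in unbanded transgenic hearts. Tgfb2, a TGF-beta ligand, differed by 1.43 ± 0.27 (adjusted p = 0.0532) and Fstl3, an activin antagonist, by 1.41 ± 0.32 (adjusted p = 0.0815).

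Other fibroblast and vessel wall matrix genes that passed were chosen after their values were seen. Fbln2, a fibulin, rose by 1.50 ± 0.25, Cd248, endosialin of pericytes and fibroblasts, by 1.06 ± 0.18, Emilin1, an elastic fibre protein, by 1.04 ± 0.16, Mrc2, a collagen uptake receptor, by 0.86 ± 0.15 and Pcolce2, a procollagen processing enhancer, by 0.81 ± 0.12 (adjusted p from 0.0221 to 0.0386; 0.0553 to 0.0977 with slide as a random block). The other probe of Mrc2 differed by 0.09. In banded wild-type hearts the same genes were 1.18 to 2.14 above sham. Sod3, the extracellular superoxide dismutase, was the 1 of 29 antioxidant and glutathione genes that passed. It went from 1.74, 1.98 and 1.84 to 2.77, 2.78 and 2.52, a rise of 0.84 ± 0.15 (adjusted p = 0.0411; 0.0621 with slide as a random block). The mitochondrial Sod2 differed by -0.39 ± 0.11 (adjusted p = 0.131).

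A few genes of the mitochondrial and amino acid stress response were far above wild-type sham, while most of their lists were not. Mthfd2, a mitochondrial folate enzyme, stood at -4.27, -4.51 and -4.15 on the wild-type sham arrays and at -0.26, 1.53 and 0.45 on the banded transgenic arrays, and rose by 4.88 ± 0.72 (adjusted p = 0.0199). Asns, asparagine synthetase, whose promoter is printed above, went from -1.37, -0.79 and -1.19 to 1.64, 3.76 and 2.92, a rise of 3.89 ± 0.67 (adjusted p = 0.0386). For both genes the banded transgenic arrays were spread over 1.5 log2 units or more and still did not overlap the sham arrays. With slide as a random block neither passed (adjusted p = 0.0532 for Mthfd2 and 0.0945 for Asns). The difference from sham in unbanded transgenic hearts was 6.16 for Mthfd2 and 5.29 for Asns, and in banded wild-type hearts 2.79 and 1.61. Against banded wild-type hearts, banded transgenic hearts differed by 2.09 ± 0.72 (adjusted p = 0.122) and 2.28 ± 0.67 (adjusted p = 0.0818).

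Fgf21, a secreted metabolic hormone, was not well above background on any wild-type sham array (-7.95, -6.37 and -8.56) and measured -3.45, -2.02 and -3.46 on the banded transgenic arrays. It was at least 5.47-fold higher, but the fitted difference of 4.65 ± 0.93 did not pass (adjusted p = 0.0625). Phgdh, the first enzyme of serine synthesis, measured -2.21, -1.95 and -1.85 against -0.10, 1.70 and 0.90, a difference of 2.84 ± 0.60 (adjusted p = 0.0716). Psat1, the next enzyme of that pathway, differed by 2.07 ± 0.64 (adjusted p = 0.152), and its other probe by 0.39. Neither gene's arrays overlapped, and both gaps failed the adjustment. Aldh1l2, a mitochondrial folate dehydrogenase, differed by 1.39 ± 0.36 (adjusted p = 0.107), Gdf15, a stress-induced hormone, by 1.77 ± 0.77 (adjusted p = 0.301) and Atf5, a transcription factor of the mitochondrial stress response, by 1.24 ± 0.42 (adjusted p = 0.19). Atf4 itself (0.44 ± 0.47, adjusted p = 0.721) overlapped between the groups, as did Shmt2, a mitochondrial serine hydroxymethyltransferase (-0.02 ± 0.17, adjusted p = 0.974). Atf3, a further stress factor, measured lower on all 3 banded transgenic arrays than on any sham array, at -1.23 ± 0.49 (adjusted p = 0.258). In unbanded transgenic hearts Fgf21, Phgdh, Psat1 and Gdf15 differed from sham by 6.51, 4.65, 3.38 and 3.03. These values are larger than in banded transgenic hearts. Between banded and unbanded transgenic hearts, however, 0 of all genes passed, these among them. The mean level of Gdf15 was -1.75 in wild-type sham, 0.02 in banded transgenic and 1.33 in banded wild-type hearts.

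As lists, 1 of 26 ATF4 and amino acid response genes passed (Asns), with 12 above and 4 below every sham array and a median of 0.33. Of 22 serine and one-carbon genes 1 passed (Mthfd2), with a median of 0.13. Of 20 cytosolic aminoacyl-tRNA synthetase genes 0 passed, with 9 above and 4 below every sham array and a median of 0.25. Mars1, the methionyl enzyme, differed most among them, at 0.78 ± 0.22 (adjusted p = 0.125). Of all genes 11.2% lay above and 17.1% below every sham array. The members below, 15.4% of the ATF4 list and 20% of the synthetase list, were near that share. In unbanded transgenic hearts the 3 medians were 0.92, 0.28 and 0.53, and in banded wild-type hearts 0.49, -0.12 and 0.10.

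Several chaperones of the endoplasmic reticulum fell below wild-type sham. Of 20 measured 3 fell, as did 0.195% of all genes, while 0 rose and 17 did not pass. Differences were below 0 for 19. On every banded transgenic array 15 were lower than on any sham array, as were 17.1% of all genes. The median was -0.39 (-0.31 after quantile normalization). Canx, the lectin chaperone calnexin, stood at 4.30, 4.32 and 4.31 against 3.64, 3.39 and 3.52, and fell by 0.79 on the log2 scale (-0.79 ± 0.10, adjusted p = 0.0127; 0.0202 with slide as a random block). Hspa5, the chaperone BiP, stood at 5.70, 5.85 and 5.61 against 4.94, 4.91 and 5.25 (-0.69 ± 0.12, adjusted p = 0.0386; 0.0836 with the block). Manf, a secreted factor of this compartment, stood at 1.41, 1.63 and 1.28 against 0.59, 0.78 and 0.77 (-0.73 ± 0.12, adjusted p = 0.0322; 0.0691 with the block). None of the 3 genes overlapped between the groups. Hsp90b1 (-0.50 ± 0.11) and Calr (-0.47 ± 0.10), which also fold proteins there, did not pass (adjusted p = 0.0762 and 0.0694). Canx, Hspa5 and Manf differed from sham by -0.69, -0.84 and -0.49 in banded wild-type and by -0.81, -0.74 and -0.67 in unbanded transgenic hearts. Against banded wild-type hearts the 3 genes differed by -0.10 ± 0.10, 0.15 ± 0.12 and -0.24 ± 0.12, and none passed (adjusted p from 0.263 to 0.627).

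**Figure D4:**
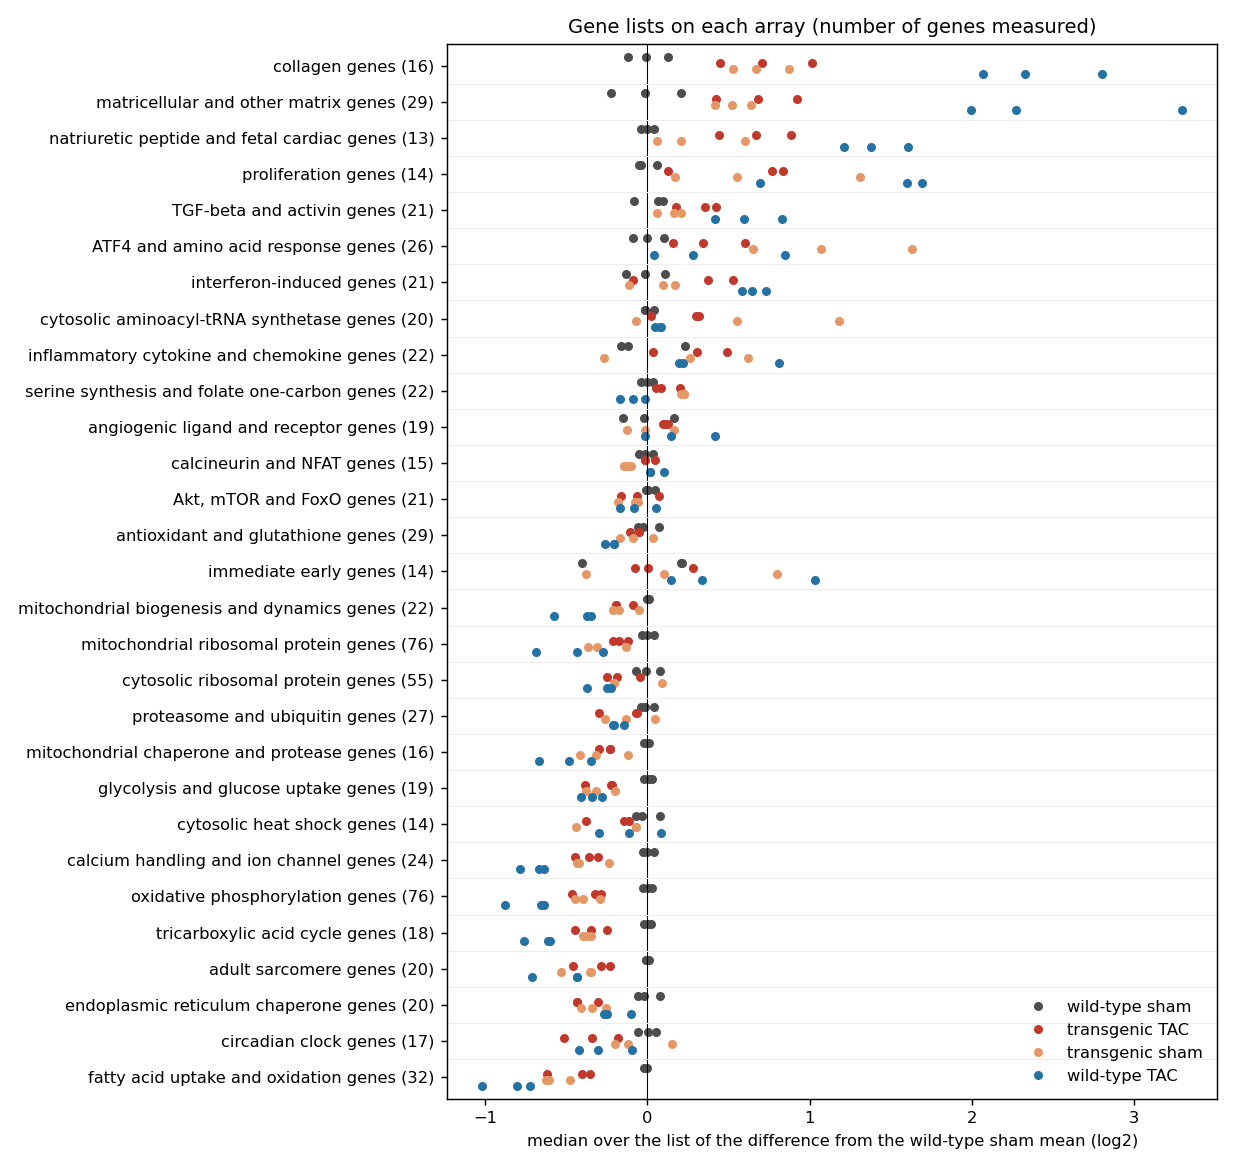
Median difference of each gene list from the wild-type sham mean (log2) on each of the 12 arrays; each point is an array and each row a list, coloured by group. The banded transgenic arrays lie between wild-type sham and banded wild-type arrays for the collagen genes (0.45 to 1.02 against 2.07 to 2.80) and the oxidative phosphorylation genes (-0.46 to -0.29 against -0.88 to -0.64).

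Mitochondrial energy genes lay slightly below wild-type sham in banded transgenic hearts, and almost none passed. Of 32 fatty acid uptake and oxidation genes 30 had differences below 0 and 27 were lower on every banded transgenic array, as were 17.1% of all genes. Their median was -0.45, but only Lpl passed. Lpl, the lipase that frees fatty acids from circulating fat, stood at 7.79, 7.79 and 7.78 against 7.31, 7.01 and 7.21 (-0.61 ± 0.11, adjusted p = 0.0411; 0.0963 with slide as a random block). Hadha, a subunit of the trifunctional oxidation enzyme, differed by -0.70 ± 0.14 (adjusted p = 0.0673), Acaa2, a thiolase, by -0.75 ± 0.14 (adjusted p = 0.053) and Acot1, a thioesterase, by -0.99 ± 0.38 (adjusted p = 0.249). Of 76 oxidative phosphorylation genes 75 were below 0 and 71 were lower without overlap, as were 17.1% of all genes. Their median was -0.36, and only Sdhc, a membrane subunit of complex II, passed. Sdhc stood at 6.33, 6.39 and 6.39 against 5.86, 5.64 and 5.84 (-0.59 ± 0.10, adjusted p = 0.0386; 0.0794 with slide as a random block). The other probe of Sdhc differed by -0.42 and that of Lpl by -0.70. The tricarboxylic acid cycle genes had a median of -0.37 with 0 of 18 passing, and the mitochondrial ribosomal protein genes -0.17 with 0 of 76. In unbanded transgenic hearts the medians of these lists, in the order given, were -0.57, -0.37, -0.36 and -0.26 from wild-type sham. There 13 of 32 fatty acid and 3 of 76 oxidative phosphorylation genes were lower, beside 1.4% of all genes that passed in either direction.

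The medians in banded transgenic hearts depended on the scaling. After quantile normalization they were -0.24 for fatty acid genes, -0.07 for oxidative phosphorylation, -0.12 for the cycle and -0.07 for the mitochondrial ribosome. The 75th percentile signal was higher on the banded transgenic arrays, and the bright cardiomyocyte genes moved with these lists. The 12 cardiomyocyte markers had a median of -0.38 (-0.04 after quantile normalization) with 0 passing, and a summed level of 3040 to 3221 on the wild-type sham arrays and 1996 to 2433 on the banded transgenic arrays. Their part in the mitochondrial values was not tested. Among genes well above background on all 12 arrays alone, which makes fewer tests and drops dim genes, 28 oxidative phosphorylation and 16 fatty acid genes were lower, beside 534 of all 12257 genes (4.36%). Against banded wild-type hearts the banded transgenic hearts had medians of 0.36 for oxidative phosphorylation, with 8 of 76 genes higher, and 0.45 for fatty acid genes, with 6 of 32 higher. Of all 25185 genes 565 were higher in that comparison. The 2 list counts were 0 and 0 without transgenic TAC array 1, without wild-type TAC array 1 or 3, and with normexp. They were 1 and 0 without transgenic TAC array 3 or wild-type sham array 1. With the filter on all 12 arrays they were 52 of 76 and 21 of 31. After quantile normalization the list values were 0.21 with 1 of 76 and 0.34 with 1 of 32, beside 404 of all 25185 genes. With normexp and quantile normalization the medians were 0.19 and 0.35. On the slide with both groups, 1 banded transgenic array against 2 banded wild-type arrays, 75 of 76 and 30 of 32 genes were above 0. The medians there were 0.47 and 0.56. The share of all genes above 0 on that slide was not computed, and over all arrays of the comparison it was 55.3%.

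Among regulators of energy metabolism, Ppara and Pink1 fell. Ppara, the nuclear receptor that drives fatty acid oxidation genes, stood at 3.92, 3.99 and 3.70 on the wild-type sham arrays and at 2.84, 3.02 and 2.79 on the banded transgenic arrays, and fell by 0.98 on the log2 scale (-0.98 ± 0.17, adjusted p = 0.0386; 0.0692 with slide as a random block). Its groups did not overlap, its other probes differed by -0.94 and -0.83, and its difference was -1.32 in banded wild-type and -0.77 in unbanded transgenic hearts. Ppargc1a, a coactivator of mitochondrial biogenesis, measured 4.92, 5.41 and 4.35 against 3.24, 3.65 and 3.70. That gap of -1.36 ± 0.37 did not pass (adjusted p = 0.113), although the groups did not overlap. Pink1, the kinase that marks damaged mitochondria, differed by -0.64 ± 0.12 (adjusted p = 0.0496; 0.0794 with slide as a random block). Ppara and Pink1 were the 2 of 22 mitochondrial biogenesis and dynamics genes that passed, both lower, beside 0.195% of all genes. Metabolic genes outside the lists, chosen after their values were seen, fell as well. Ech1, a peroxisomal and mitochondrial isomerase of fatty acid oxidation, differed by -0.96 ± 0.13, Bckdha, of branched-chain amino acid breakdown, by -0.91 ± 0.14, Slc25a11, the oxoglutarate carrier, by -0.73 ± 0.10 and Gcat, of threonine breakdown, by -0.95 ± 0.15 (adjusted p from 0.0128 to 0.0237). Those 4 genes passed also with slide as a random block, at adjusted p from 0.0287 to 0.0483.

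Contractile and calcium genes of the adult heart gave no call. Of 20 adult sarcomere genes 0 passed, with a median of -0.37 (-0.03 after quantile normalization). Below every sham array were 13, as were 17.1% of all genes. Myh6, the fast myosin heavy chain, measured 8.86, 8.91 and 8.86 against 8.45, 8.20 and 8.50 (-0.50 ± 0.11, adjusted p = 0.0752). Of 24 calcium handling and ion channel genes 0 passed, with a median of -0.35 (-0.28 after quantile normalization). Atp2a2, which pumps calcium back into the sarcoplasmic reticulum, measured 7.63, 7.53 and 7.69 against 7.17, 6.83 and 6.99 (-0.62 ± 0.13, adjusted p = 0.0694). Kcnd2 and Kcnip2, the channel and the accessory subunit of a fast outward potassium current, differed by -1.60 ± 0.34 and -1.14 ± 0.25 (adjusted p = 0.0716 and 0.0788). Neither Myh6 nor Atp2a2 overlapped between the groups. Their differences in banded wild-type hearts were -0.76 and -0.95, and the banded transgenic hearts were 0.26 ± 0.11 and 0.33 ± 0.13 above those (adjusted p = 0.186 and 0.157). In unbanded transgenic hearts Myh6 and Atp2a2 differed from sham by -0.39 and -0.66. The sarcomere and calcium list medians there were -0.41 and -0.30.

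Calcineurin genes as a list sat at the wild-type sham level. Of 15 measured 0 passed, with a median difference of 0.00. Rcan1, a calcineurin inhibitor that calcineurin itself induces through NFAT, measured 1.60, 1.85 and 1.48 on the wild-type sham arrays and 2.27, 1.85 and 2.00 on the banded transgenic arrays (0.40 ± 0.19, adjusted p = 0.36). The groups met at 1.85. In banded wild-type hearts Rcan1 was 1.49 above sham, and the banded transgenic hearts were below those by a difference of -1.10 ± 0.19 (adjusted p = 0.0203). Tbc1d10c, which encodes carabin, an inhibitor of calcineurin, was among the largest falls. It stood at 0.71, 0.85 and 1.02 against -0.68, -2.12 and -1.88 (-2.42 ± 0.39, adjusted p = 0.0284; 0.0636 with slide as a random block), and its difference was -2.64 in banded wild-type and -1.96 in unbanded transgenic hearts. Among 21 Akt, mTOR and FoxO genes 0 passed, with a median of -0.04. Akt1 and Akt2, the growth kinases, differed by -0.35 ± 0.10 and -0.36 ± 0.09 (adjusted p = 0.144 and 0.105).

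The largest fall was that of Plekhh1, a pleckstrin homology domain protein gene, from -1.34, -1.36 and -0.94 to -3.37, -5.73 and -4.76 (-3.41 ± 0.52, adjusted p = 0.0229; 0.0541 with slide as a random block). Ano10, a scramblase of the anoctamin family, went from 3.81, 3.77 and 3.80 to 2.26, 1.28 and 1.82 (-2.00 ± 0.27, adjusted p = 0.0132), but its other probe differed by only -0.09. Dhrs4, a carbonyl reductase, went from 2.02, 1.95 and 2.09 to 0.81, 0.59 and 0.34. It fell by 1.44 on the log2 scale (-1.44 ± 0.14, adjusted p = 0.00227), and its difference was -1.97 in unbanded transgenic and -0.89 in banded wild-type hearts. Tom1, an adaptor of endosomal sorting, went from 4.29, 4.26 and 4.22 to 3.37, 3.32 and 3.16 (-0.98 ± 0.10, adjusted p = 0.00263). Tom1 differed by -0.84 in unbanded transgenic hearts and by -0.11 in banded wild-type hearts, and the banded transgenic hearts were below the latter by -0.86 ± 0.10 (adjusted p = 0.00346). Dhrs4 and Tom1 kept their calls with slide as a random block (adjusted p = 0.00349 and 0.00403). The other, dim probe of Tom1 differed by -0.43.

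Tnni2, the fast skeletal troponin I, went from -0.02, 0.48 and 0.63 to -0.91, -1.67 and -0.86 (-1.51 ± 0.26, adjusted p = 0.0386; 0.109 with slide as a random block), with no overlap. It was the 1 of 7 skeletal muscle markers that passed. The summed level of that list was 57.6 to 70.6 on the wild-type sham arrays and 42.2 to 52.9 on the banded transgenic arrays, and its part in the Tnni2 value was not tested. The other falls in the naming rule were between -1.34 and -0.98: Siah2, a ubiquitin ligase, Noxred1, Ift81, of intraflagellar transport, Aspdh, Tmem164, Tcea3, a transcription elongation factor, Tnfaip8 and Rtn2, a reticulon of the endoplasmic reticulum. Of these 8 only Ift81 passed with slide as a random block (adjusted p = 0.0331), and the other 7 had adjusted p-values from 0.0655 to 0.106 there. Of the rises in the rule not yet given, Vgll2, a cofactor of TEAD transcription factors, went from -4.12, -3.68 and -4.13 to -0.09, 0.36 and -0.87, a rise of 3.77 ± 0.66 (adjusted p = 0.0411; 0.119 with the block). Lman1l, a lectin of the secretory pathway, rose by 2.49 ± 0.44 on its tested probe (adjusted p = 0.0411; 0.0803 with the block) and its other probe differed by 0.52.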

How the data were processed

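Total RNA from left ventricle sections was hybridised to 12 single-colour (Cy3) Agilent arrays, 3 in each of 4 groups taken from the sample titles. Per the file headers, spot signals are in units of intensity from Agilent Feature Extraction 10.7.3.1: a processed signal, background-subtracted and spatially detrended but not scaled between arrays, and median spot and background brightness. The deposited value table is in log2 units; set against the scanner files, it holds processed signals scaled per array, with the median of each probe over all arrays set to 0, and has column medians from -0.09 to 0.12. It served as an alternative. The submitters' processing notes name RMA, with no role given.

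Here the 75th percentile of log2 processed signal over 43020 non-control spots was subtracted per array, outlier spots were dropped, and replicate spots were averaged. Of 39429 probes, 26424 were named through their accessions with a RefSeq gene table of GRCm38.p6 (20021 symbols); 13005 kept their probe name. The array annotation uses mm9, so positions are given only for promoters from the RefSeq table. Probes well above background on at least 3 arrays were kept, and the brightest represented its gene, which left 25185 genes, 16572 named.

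limma 3.58.1 in R 4.3.3 fitted 4 group means over the 12 arrays (two-sided moderated tests, 8 residual and 1.78 prior degrees of freedom, median residual SD 0.28), with Benjamini-Hochberg adjustment over all genes. "At least" folds set the bright group against the lowest signal well above background on each array, or the dim probe's own signal where higher. Promoters were searched for a motif on both strands. With 3 arrays a group, their number limits precision. The limma fit alone was run on simulated data of 25185 genes with 3 arrays a group, independent normal noise and no slide effect. It recovered 48% of 100 genes changed by 1 and 81% of 100 changed by 2 between transgenic TAC and wild-type sham (log2). Among the genes left unchanged it made 5 false calls. The simulation covers neither scaling and filtering nor a slide difference, so its shares do not carry over to these arrays.

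By rule, the text names 19 core genes, up to 15 passing genes in each direction by size of difference whose arrays do not overlap (clone and predicted names left out), and of each list up to 6 members with the smallest p plus both extremes; other genes are said to be chosen after their values were seen. The genes, lists and comparison were chosen with earlier results of these data known. List membership gives counts and medians, with no list test. Alternatives covered scaling, background correction, probe filters, variance models, blocks and leave-one-out fits; the scanner files give no mean spot brightness, so normexp (offset 50) used the medians and replaced the processed signal as well.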

Additional observations from a re-analysis of the deposited data

How the results depend on the processing

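All 172 genes kept their direction in the 29 alternatives, but the counts moved. The total was 97 with median scaling (76 higher, 21 lower), 17 with normexp (15 and 2; 17 over 2-fold), 299 with normexp and quantile normalization (187 and 112), 74 with no filter (61 and 13; 57 over 2-fold), 902 with the filter on all 12 arrays (368 and 534; 152 over 2-fold), 766 with a trended robust variance (346 and 420; 245 over 2-fold), 2649 with array weights (1172 and 1477; 556 over 2-fold), 313 unmoderated (172 lower), 102 with the 6 arrays alone (80 and 22), 78 with slide as a random block (61 and 17; 55 over 2-fold), and 0 with slide as a fixed block (0 and 0; 0 over 2-fold; 2026 with an unadjusted p under 0.05). With quantile normalization 24 were lower. Normexp also replaced the processed signal, and no filter raised the tests to 32853 while the filter on all 12 arrays left 12257; the cause of the other moves was not tested. Leaving out each array gave 38 to 299 in all, 35 to 196 higher, 2 to 103 lower and 36 to 158 over 2-fold; a left-out array leaves 2 in its group, assumed to vary like the rest. The replicate block gave 58 (47 higher, 11 lower; 46 over 2-fold). The labels share replicate numbers between groups but do not pair the arrays: deviations of same-numbered transgenic TAC and wild-type sham arrays correlated at 0.09, 0.13 and -0.10. No slide held both groups, so the planned within-slide difference was not run; the within-slide values against banded wild-type hearts were added after seeing the data. Over 302 named genes, 7883 values stayed on their side of the threshold, 486 lost and 314 gained a call; 94 values of 52 genes changed sign, 0 of them past the threshold in either fit. Dim genes are limited by background, above all on transgenic sham array 2.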

Other observations

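Several further groups had no member that passed by limma in banded transgenic hearts. Of 17 circadian clock genes 0 passed, with a median of -0.40 and 7 below every sham array, as were 17.1% of all genes. Ciart, a clock repressor, measured -1.17, -1.71 and -1.45 against -4.92, -2.65 and -3.75 (-2.33 ± 0.56, limma adjusted p = 0.0902), and Dbp, a clock output factor, 5.30, 5.11 and 5.37 against 3.58, 4.77 and 4.60 (-0.95 ± 0.41, adjusted p = 0.296). The clock medians were -0.39 in banded wild-type and 0.00 in unbanded transgenic hearts. The hour at which hearts were taken is not given in the labels, and its part was not tested. Of 14 proliferation genes 0 passed, with a median of 0.50 and 6 above every sham array, as were 11.2% of all genes. Mki67, the proliferation antigen, measured -2.20, -2.15 and -2.56 against -1.92, -0.63 and 0.00 (1.45 ± 0.49, adjusted p = 0.187), and Top2a 1.57 ± 0.73 (adjusted p = 0.336). Of 21 interferon-induced and 22 inflammatory genes 0 and 0 passed, with medians of 0.27 and 0.21. Cxcl10, a chemokine, measured -4.85, -5.33 and -4.65 against -2.97, -3.32 and -2.89 without overlap (1.88 ± 0.49, adjusted p = 0.107). Macrophage markers had a median of 0.37 with 0 of 14 passing, and endothelial markers 0.20 with 0 of 12.

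Some single genes that passed belong to none of the lists and were picked after their values were seen. Sbk1, a kinase gene, went from 1.45, 1.26 and 1.72 to 3.65, 3.97 and 3.48 (2.22 ± 0.23, adjusted p = 0.00288). It stayed past the threshold in 28 of 29 alternatives. Its difference in unbanded transgenic hearts was 2.17, and in banded wild-type hearts -0.74. Scd2, a fatty acid desaturase, rose by 1.43 ± 0.17 (adjusted p = 0.00774), and Grk5, a kinase of G protein-coupled receptors, by 1.29 ± 0.23 (adjusted p = 0.0411; 0.109 with slide as a random block). Lrrc10, a cardiac leucine-rich repeat protein, went from 5.08, 5.11 and 5.09 to 4.12, 4.49 and 4.06 (-0.87 ± 0.13, adjusted p = 0.0206). It differed from banded wild-type hearts by -0.58 (adjusted p = 0.0405). Mylk3, the cardiac myosin light chain kinase, fell by 0.86 on the log2 scale (-0.86 ± 0.16, adjusted p = 0.0488; 0.0836 with slide as a random block).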
